A study of Mus musculus with 9 samples.

Results

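A set of 9 genes of the Notch pathway and of the Notch2-dependent ESAM-high state of splenic type 2 conventional dendritic cells (cDC2) was followed in sorted cells from young and adult mice. They were taken by symbol: the receptors Notch1 and Notch2, the protease Adam10, the nuclear factor Rbpj, the target genes Dtx1, Hes1 and Nrarp, and the surface proteins Esam and Cd4. The deposited files listed 24054 genes, and all 9 members were among the 14452 genes tested, those whose mean count over the libraries reached 1. The 9 libraries came from spleens of C57BL/6 mice that were homozygous for Clec9a-Cre and for a Rosa-tdTomato reporter, so that all groups lacked functional DNGR-1, the protein encoded by Clec9a. Live, autofluorescence-negative MHCII+CD11c+CD11b+ cells were sorted by TOMATO, which marks cells in whose history Clec9a drove Cre. At 8 days of age, with spleens pooled, TOM+ cDC2 and TOM- DC2 gave 3 libraries each. A further 3 were TOM+ cDC2 of adult mice, aged 8 weeks (replicates 2 and 3) or 9 weeks (replicate 1). The comparisons asked how age and fate-mapping history relate to gene expression. The study calls the libraries of a group biological replicates, and the labels do not say which mice or pools each came from.

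Notch receptors are cut after binding a ligand on a neighbouring cell. ADAM10 makes the first of these cuts, the gamma-secretase complex makes the next, and the freed intracellular domain joins RBPJ on DNA and switches on targets such as Hes1, Nrarp and Dtx1. In the spleen, Notch2 signals are required for cDC2 that carry high surface ESAM, many of which also carry CD4, whereas ESAM-low cDC2 form without them. The sort did not use ESAM or CD4. In such bulk samples, fewer cells of a type and less RNA per cell cannot be told apart.

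Promoter windows of RefSeq (GRCm38.p6, the build of the files) were at hand for Notch1, Notch2, Rbpj, Dtx1, Nrarp and Adam10, and were scanned over the 250 bases before each start for TGGGAA, the core of the sequence that RBPJ binds, on both strands. The core was present in 21.6% of all 32851 windows of that length. Both of the overlapping windows of Rbpj held it, and it was found in none of the 5 windows of the other members, which says only that these letters are not there. The windows of Rbpj lie inside the gene, before a start downstream of its first annotated base, where no window was at hand. The site in the second window is also in the first. The window of Dtx1 also lies mostly inside its gene, whose first annotated base on the minus strand is 120711867. That of Adam10 ends inside its gene, which begins at 70678944. The windows of Dtx1 (chr5:120711670-120711919, minus strand) and Notch1 (chr2:26503823-26504072, minus strand) are shown because these are the members with a window whose level differed most with age. The first window of Rbpj (chr5:53590096-53590345, plus strand) and the window of the target gene Hes5 (chr4:154960673-154960922, plus strand) are shown because they hold the core, in capitals, with the first base at -149 and -65 in Rbpj and at -226 and -82 in Hes5, counted from the start. Windows of further pathway genes that differed with age were scanned as well. Those of Jag1, Jag2, L3mbtl3, Neurl1a and Neurl3 did not hold the core, so Hes5 was picked from several genes for holding it.
Dtx1: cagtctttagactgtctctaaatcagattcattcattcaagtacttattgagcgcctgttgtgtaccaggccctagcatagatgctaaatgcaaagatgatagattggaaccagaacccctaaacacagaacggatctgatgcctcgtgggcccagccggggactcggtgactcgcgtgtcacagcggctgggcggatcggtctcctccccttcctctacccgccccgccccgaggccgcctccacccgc
Notch1: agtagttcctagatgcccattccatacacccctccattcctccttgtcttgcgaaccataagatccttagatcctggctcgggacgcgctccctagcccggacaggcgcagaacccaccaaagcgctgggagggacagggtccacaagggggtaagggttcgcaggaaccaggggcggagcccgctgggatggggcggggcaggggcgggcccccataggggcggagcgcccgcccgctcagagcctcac
Rbpj: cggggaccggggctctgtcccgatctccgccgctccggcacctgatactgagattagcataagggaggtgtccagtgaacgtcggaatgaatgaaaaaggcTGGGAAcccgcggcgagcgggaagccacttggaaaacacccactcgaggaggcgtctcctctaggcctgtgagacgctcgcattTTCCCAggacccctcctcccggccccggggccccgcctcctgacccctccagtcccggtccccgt
Hes5: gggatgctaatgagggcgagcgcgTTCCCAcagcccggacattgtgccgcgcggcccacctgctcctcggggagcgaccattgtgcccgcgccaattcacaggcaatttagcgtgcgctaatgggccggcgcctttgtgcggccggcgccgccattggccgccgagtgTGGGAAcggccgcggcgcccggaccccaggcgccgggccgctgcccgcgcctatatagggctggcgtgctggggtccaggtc

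Each library held between 12783252 and 22809401 reads assigned to genes. Of the 10 genes fixed as markers of cDC2 identity, each was present in every library, and in each age comparison 7 of them rose and 2 (Itgam and Sirpa) fell. The 7 that rose included Irf4 from young TOM+ cDC2 (padj = 0.017, and 0.053 from young TOM- DC2) and Zbtb46 from young TOM- DC2 (padj = 0.0048, and 0.23 from young TOM+ cDC2). Levels are given in TPM, transcripts scaled to their length and to the library. The summed TPM of 8 markers of cDC1 was 306 to 359 over all libraries. Most of it was Batf3, at 151.62 to 193.97 TPM, and Wdfy4, at 115.70 to 170.23 TPM. Xcr1 did not exceed 3.79 TPM and Clec9a did not exceed 0.34 TPM. Batf3 rose and Cadm1 fell in both age comparisons, Gcsam fell from young TOM- DC2, and no other marker of this list rose or fell. Libraries are named by group and replicate. Young replicate 1 was the highest young library in both TOM+ and TOM- cells for Notch1, Notch2, Dtx1, Esam and Cd4, and libraries of the same replicate number in the 2 young groups deviated together. Log2 fold changes (log2FC) came from edgeR on the read counts and are given with their standard error (SE). A gene passed the test at an adjusted p (padj) under 0.05, adjusted over all genes tested, and was called where log2FC was also beyond 1 in either direction. Both age comparisons share the 3 adult libraries.

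From young to adult TOM+ cDC2, Dtx1, Esam and Cd4 rose and Notch1 fell. These were 4 of the 9 members and all 4 were called, where 40.6% of all genes tested passed (19.5% higher and 21% lower in adults) and 12.8% were called (6.86% higher and 5.96% lower). Between young TOM- DC2 and adult TOM+ cDC2 the same 4 genes passed in the same directions and 3 were called, beside 36.3% of all genes that passed (16.9% higher and 19.4% lower in adults) and 11.3% that were called (4.78% higher and 6.5% lower). The median log2FC of the members was 0.02 and 0.11, and that of all genes tested was -0.05 and -0.07. Notch2, Rbpj, Adam10, Hes1 and Nrarp did not pass in either comparison. The TPM of adult and young libraries did not overlap for 6 members in each comparison, where this was so for 52.1% and 50.1% of all genes.

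Notch1 (chromosome 2, 26457902 to 26503822, minus strand) encodes the receptor best known for its role in T cell development. Its level was 1.35, 0.89 and 0.96 TPM in young TOM+ cDC2, 1.81, 1.34 and 1.33 TPM in young TOM- DC2, and 0.27, 0.46 and 0.55 TPM in adult TOM+ cDC2. All adult libraries lay below all young ones, and no library reached 2 TPM. The log2FC from young to adult was -1.11 in TOM+ cDC2 (SE 0.23, padj = 0.0021), which is 2.16-fold lower, and -1.58 from young TOM- DC2 (SE 0.23, padj = 0.00019), which is 2.99-fold lower. It rested on 22 to 52 reads per adult library and 85 to 180 per young library.

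Notch2 (chromosome 3, 98013538 to 98150367, plus strand), the receptor on which ESAM-high cDC2 depend, was the more abundant of the pair throughout. Its level was 37.23, 19.91 and 26.45 TPM in young TOM+ cDC2, 42.51, 21.66 and 31.06 TPM in young TOM- DC2, and 29.87, 30.92 and 29.87 TPM in adults. The adult libraries lay close together and within the spread of both young groups. The log2FC was 0.26 from young TOM+ cDC2 (SE 0.20, padj = 0.34) and 0.11 from young TOM- DC2 (SE 0.20, padj = 0.72). The first of these depended on young replicate 1: without that replicate of both young groups, a choice made after the data were seen, it was 0.50 (padj = 0.015, over a range of 8.4e-05 to 0.85 in 20 alternatives).

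Notch2 made up most of the transcript level of the 2 receptors together. Its share of their summed TPM was 96.2% ± 0.449 (SD, n = 3) in young TOM+ cDC2, 95.3% ± 0.999 in young TOM- DC2 and 98.6% ± 0.461 in adults. The lowest adult share, 98.2%, exceeded the highest young share, 96.5%. With 3 libraries against 3, the two-sided exact permutation p was 0.1 for adults against either young group, the smallest this design allows, and 0.3 between the young groups.

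Adam10 (chromosome 9, 70678944 to 70780229, plus strand) was at 50.12, 42.28 and 42.51 TPM in young TOM+ cDC2, at 50.98, 43.03 and 38.99 TPM in young TOM- DC2 and at 36.18, 35.09 and 38.08 TPM in adults. The adult values lay just below the young ones, but on the count scale the log2FC was only -0.18 (SE 0.09, padj = 0.12) and -0.12 (SE 0.09, padj = 0.32). With libraries scaled by their totals alone it passed, at -0.38 and -0.34 (padj = 0.0068 and 0.013). Under that scaling the median of all genes also moved, to -0.25 and -0.29, so that Adam10 lay close to the typical gene.

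Rbpj (chromosome 5, 53555779 to 53657445, plus strand), the DNA-binding partner of the cleaved receptors, was at 76.74, 74.32 and 79.29 TPM in young TOM+ cDC2, at 75.31, 72.68 and 80.97 TPM in young TOM- DC2 and at 62.50, 61.93 and 69.11 TPM in adults. All adult values were lower in TPM, while the log2FC on counts was -0.02 (SE 0.09, padj = 0.90) and 0.04 (SE 0.09, padj = 0.75). On log2(TPM + 1) it passed at -0.25 and -0.24 (limma, padj = 0.019 and 0.023), where the median of all genes was -0.12 and -0.16. Only 25.2% of the reads that RSEM assigned to Rbpj were counted on it by STAR, which leaves out reads that match several places, against 101% to 105% for the other members. Copies of the gene are annotated as pseudogenes (Rbpj-ps1, Rbpj-ps2 and Rbpj-ps3), and its level is uncertain where reads match several places.

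Dtx1 (chromosome 5, 120680203 to 120711867, minus strand) encodes Deltex1, a ubiquitin ligase that binds the intracellular part of Notch, and is a Notch target in lymphocytes. In young TOM+ cDC2 its level was 69.26, 32.05 and 47.39 TPM, in young TOM- DC2 115.7, 58.95 and 91.84 TPM, and in adults 183.43, 173.62 and 192.38 TPM. Every adult library exceeded every young one, and the young groups overlapped. The log2FC to adults was 2.02 from young TOM+ cDC2 (SE 0.23, padj = 3e-05), which is 4.05-fold, and 1.21 from young TOM- DC2 (SE 0.23, padj = 0.0012), which is 2.32-fold. Among the members Dtx1 had the highest mean level in adults, 183 TPM ± 9.38 (SD, n = 3). Marginal zone B cells also express Dtx1 and Notch2. Of 8 B cell markers tested, 5 rose and 1 fell from young to adult TOM+ cDC2 and 3 rose and 2 fell from young TOM- DC2, while their summed level was 61.9 to 72.4 TPM in young TOM+ cDC2, 81.7 to 95.6 TPM in young TOM- DC2 and 58.5 to 75.3 TPM in adults. Pax5 did not exceed 0.12 TPM in any library, and the part of B cells in the level of Dtx1 was not tested.

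Hes1 (chromosome 16, 30065357 to 30067796, plus strand), a repressor of transcription and a widely used readout of Notch signals, was at 73.01, 88.34 and 81.64 TPM in young TOM+ cDC2, at 60.58, 70.92 and 67.35 TPM in young TOM- DC2 and at 91.86, 50.75 and 82.97 TPM in adults. The adult libraries spanned the full range, with replicate 2 the lowest of all 9. The log2FC to adults was 0.02 from young TOM+ cDC2 (SE 0.19, padj = 0.94) and 0.32 from young TOM- DC2 (SE 0.19, padj = 0.20). Without adult replicate 2 the second value was 0.53 (padj = 0.015, over a range of 0.015 to 0.67 in 20 alternatives).

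Nrarp (chromosome 2, 25180758 to 25183339, plus strand), which encodes a small ankyrin repeat protein that restrains Notch signalling, was at 2.14, 2.05 and 1.84 TPM in young TOM+ cDC2, at 2.37, 2.20 and 2.75 TPM in young TOM- DC2 and at 2.55, 1.07 and 1.11 TPM in adults. Adult replicate 1, the 9-week-old sample, stood at the young level and the other 2 adult libraries below it. The log2FC was -0.26 (SE 0.32, padj = 0.55) and -0.51 (SE 0.31, padj = 0.23), on 20 to 97 reads per library. Without adult replicate 1 it was -0.79 (padj = 0.032, range 0.032 to 0.96 in 20 alternatives) and -1.04 (padj = 0.0098, range 0.0098 to 0.55). Of the 3 target genes among the members only Dtx1 passed the test with all libraries in.

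**Figure D1:**
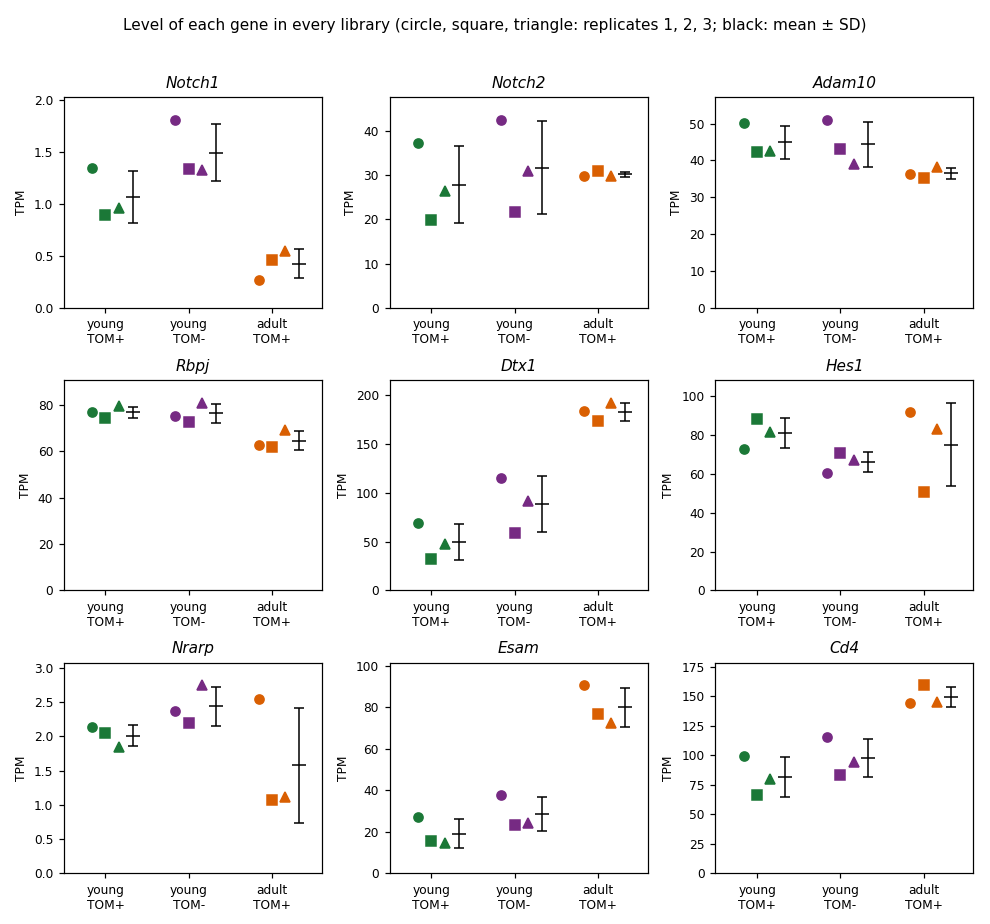
Level of the 9 genes in TPM (vertical axes, each from 0) in the 9 libraries, by group (horizontal axis), with replicates 1, 2 and 3 as circle, square and triangle and the mean ± SD of 3 libraries in black. Dtx1, Esam and Cd4 are higher and Notch1 is lower in all 3 adult libraries than in any young library, and young replicate 1 is the highest young library of its group for these genes and Notch2.

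Esam (chromosome 9, 37528089 to 37538319, plus strand), an adhesion molecule of the immunoglobulin superfamily that names the ESAM-high subset, showed the largest rise with age among the members. Its level was 27.01, 15.50 and 14.37 TPM in young TOM+ cDC2, 37.89, 23.22 and 23.96 TPM in young TOM- DC2 and 90.72, 76.76 and 72.60 TPM in adults. The lowest adult library was well above the highest young one. The log2FC was 2.21 from young TOM+ cDC2 (SE 0.21, padj = 7.2e-06), or 4.62-fold, and 1.67 from young TOM- DC2 (SE 0.20, padj = 5.8e-05), or 3.18-fold.

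Endothelial cells and platelets also express Esam. Of 9 endothelial markers tested, 1 rose (Pecam1) and 1 fell (Egfl7) in each age comparison, and the summed level of the 10 listed was 52.4 to 70.2 TPM in young TOM+ cDC2, 52.1 to 67.5 TPM in young TOM- DC2 and 57.2 to 62.7 TPM in adults. Most of this sum was Pecam1, which leukocytes express as well, at 44.27 to 57.72 TPM. In adult libraries Cldn5, Tek, Emcn and Robo4 were at 0, Cdh5, Tie1 and Egfl7 did not exceed 0.27 TPM, Kdr was at 1.62 to 2.25 TPM and Vwf at 2.21 to 2.46 TPM. In young libraries Kdr was at 0.95 to 2.66 TPM and Vwf at 2.21 to 3.36 TPM, and the part of endothelial cells in the level of Esam was not tested. Within each young group Cldn5, Tek and Egfl7 were highest in replicate 1, the library with the highest Esam, at 3.23 TPM for Cldn5 in TOM+ cDC2 and 1.49 TPM in TOM- DC2; their part in the spread of Esam among young libraries was not tested. Without both young replicate 1 libraries the log2FC of Esam was 2.51 and 1.89. The summed level of the megakaryocyte and platelet list did not exceed 6.20 TPM in any library, and Treml1 was at 0 in all 9.

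Cd4 (chromosome 6, 124864693 to 124888247, minus strand), the coreceptor for MHC class II on T cells that also marks a part of splenic cDC2, was at 99.58, 65.84 and 79.93 TPM in young TOM+ cDC2, at 115.42, 83.50 and 93.93 TPM in young TOM- DC2 and at 144.14, 159.42 and 145.22 TPM in adults. Every adult library was above every young one. The log2FC was 1.01 from young TOM+ cDC2 (SE 0.13, padj = 5.8e-05), or 2.01-fold, and 0.78 from young TOM- DC2 (SE 0.13, padj = 0.00044), which passed but was not called. Cd4 thus changed by less than Esam and Dtx1 in both comparisons, on a log2 scale.

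T cells and group 3 innate lymphoid cells (ILC3) can also carry CD4. Of 9 T cell markers tested none rose in adults and 1 (against young TOM+ cDC2) or 3 (against young TOM- DC2) fell, and the sum of the 10 listed was 27.9 to 29.0 TPM, 43.4 to 47.8 TPM and 21.9 to 32.2 TPM in young TOM+, young TOM- and adult TOM+ cells. Most of it was Cd5, at 20.53 to 36.98 TPM. Cd3d was at 0.42 to 0.81 TPM in adults and at 0.19 to 1.25 TPM in young libraries. Cd3e and Cd3g did not exceed 0.11 TPM in adults and reached 1.74 and 2.77 TPM in single young libraries, and the part of T cells in the level of Cd4 was not tested. Of 8 ILC3 markers tested, 4 rose and 1 fell from young to adult TOM+ cDC2 and 1 rose and 4 fell from young TOM- DC2. Their sum was 4.38 to 5.68 TPM, 36.5 to 41.8 TPM and 6.26 to 10.6 TPM in the same order, highest in young TOM- DC2. Il22 and Il17a were at 0 in all 9 libraries, and the part of ILC3 in the level of Cd4 in TOM- DC2 was not tested.

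**Figure D2:**
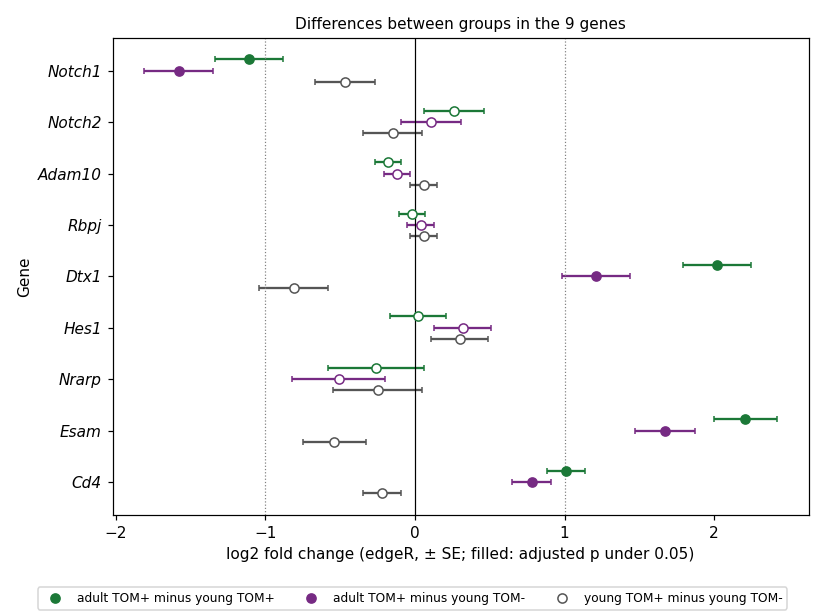
Log2 fold change (horizontal axis, edgeR, ± SE) of each gene (vertical axis) in 3 comparisons, coloured as given in the key, with dotted lines at -1 and 1. Filled points passed at padj under 0.05: Notch1 lies to the left at -1.11 and -1.58, and Dtx1, Esam and Cd4 lie to the right, between 0.78 and 2.21.

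Ordered by mean TPM, adult cells had Dtx1 (183), Cd4 (150), Esam (80.0), Hes1 (75.2), Rbpj (64.5), Adam10 (36.4), Notch2 (30.2), Nrarp (1.58) and Notch1 (0.427) TPM. Hes1, with a spread of 50.75 to 91.86 TPM, overlapped both of its neighbours in this order, and no other neighbours overlapped. Young TOM+ cDC2 had Cd4 (81.8), Hes1 (81) and Rbpj (76.8) at the top, whose libraries overlapped, followed by Dtx1 (49.6), Adam10 (45.0), Notch2 (27.9), Esam (19.0), Nrarp (2.01) and Notch1 (1.07); Dtx1 overlapped Adam10, and Notch2 overlapped Esam. In young TOM- DC2 the order was Cd4 (97.6), Dtx1 (88.8), Rbpj (76.3), Hes1 (66.3), Adam10 (44.3), Notch2 (31.7), Esam (28.4), Nrarp (2.44) and Notch1 (1.49), where Dtx1 overlapped both Cd4 and Rbpj, and Notch2 overlapped both Adam10 and Esam. Esam thus stood below Notch2 and Adam10 on average in young cells and above both in every adult library.

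Between young TOM+ cDC2 and TOM- DC2 no member passed when replicate numbers were ignored (1.6% of all genes passed, 1.47% lower and 0.125% higher in TOM+ cDC2, and 1.18% were called, 1.16% lower and 0.0208% higher), although Dtx1, Esam and Notch1 had an unadjusted p of 0.0037, 0.023 and 0.038. The log2FC of TOM+ cDC2 against TOM- DC2 was -0.81 for Dtx1 (SE 0.23, padj = 0.14), -0.54 for Esam (SE 0.21, padj = 0.37), -0.47 for Notch1 (SE 0.20, padj = 0.47) and -0.22 for Cd4 (SE 0.13, padj = 0.66). Young libraries with the same number were taken as 3 pairs, a pairing inferred from the data and not given by the labels. These 4 genes were lower in TOM+ cDC2 in each pair. The pairwise differences in log2 CPM, counts scaled to the library, were -0.70, -0.83 and -0.92 for Dtx1, -0.46, -0.55 and -0.67 for Esam, and -0.17, -0.32 and -0.20 for Cd4. Hes1 differed in the opposite direction in each pair, by 0.31, 0.32 and 0.27. The TPM of the groups did not overlap for 2 members, Hes1 and Nrarp, beside 14.4% of all genes. Of the marker lists of cells that share these genes, 3 of 8 B cell, 4 of 8 ILC3 and 1 of 9 T cell markers were lower in TOM+ cDC2, and none of 9 endothelial markers passed; their part in these differences was not tested.

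With the number as a block on all 9 libraries, 3 of the 9 members passed, beside 6.57% of all genes tested. That block also joined adult libraries 91 and 92 to the young ones of the same number, with which they did not deviate together. The blocked log2FC was -0.82 for Dtx1 (SE 0.10, padj = 7.9e-05), -0.56 for Esam (SE 0.08, padj = 0.00038) and -0.23 for Cd4 (SE 0.05, padj = 0.016), and none was beyond 1. When the block was fitted on the 6 young libraries alone, a choice made after the data were seen, 6 members passed, beside 11.8% of all genes: Dtx1, Esam and Cd4 as before, Notch1 (-0.48, padj = 0.021) and Notch2 (-0.15, padj = 0.03), all lower in TOM+ cDC2, and Hes1 (0.30, padj = 0.00075), which was higher. Rbpj, Adam10 and Nrarp passed in neither. Over 21 alternatives padj ranged from 5.4e-11 to 0.42 for Dtx1, from 4.1e-05 to 0.84 for Esam and from 0.002 to 0.99 for Cd4. Leaving out young TOM+ replicate 1 alone, without a block, gave -1.07 for Dtx1 (padj = 0.02) and -0.82 for Esam (padj = 0.038), and leaving out young TOM- replicate 2 gave -1.01 for Dtx1 (padj = 0.04). Each of these fits broke a pair and kept the partner of the library left out, so its unpaired difference is not that within pairs.

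**Figure D3:**
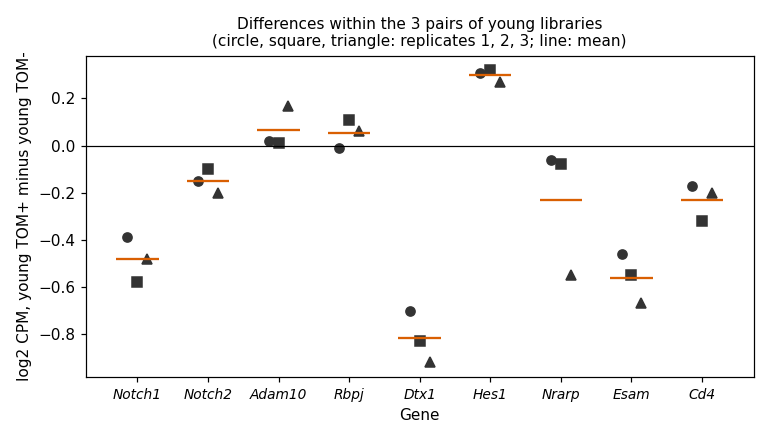
Difference in log2 CPM between young TOM+ cDC2 and young TOM- DC2 (vertical axis) within each pair of libraries of the same number, for each gene (horizontal axis), with replicates 1, 2 and 3 as circle, square and triangle and the mean as a line. All 3 points lie below 0 for Notch1, Notch2, Dtx1, Nrarp, Esam and Cd4 and above 0 for Adam10 and Hes1, and the points of Dtx1 reach from -0.70 to -0.92.

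A list of 9 genes known from ESAM-high cDC2 held Esam, Cd4 and Dtx1 themselves and 6 further genes. All 9 passed in both age comparisons, 8 of them higher in adults, beside 40.6% and 36.3% of all genes that passed and 19.5% and 16.9% that were higher. The median log2FC of the 9 was 1.01 and 0.84, that of all genes -0.05 and -0.07. These counts and medians include Esam, Cd4 and Dtx1, whose rise is reported above. The list was also chosen with earlier results of these data known, so they are not independent of those results. Of the 6 further genes, all but Ltbr were higher in adults. Among the 6 further genes, Clec4a4, the lectin receptor DCIR2, had a log2FC of 1.49 from young TOM+ cDC2 (SE 0.11, padj = 1.1e-06) and 1.28 from young TOM- DC2 (padj = 4.3e-06). On the same log2 scale Relb, an NF-kB subunit needed for these cells, rose by 1.37 (padj = 5e-07) and 1.54 (padj = 2.5e-07), from 169.33 to 227.0 TPM in young libraries to 438.68 to 542.06 TPM in adult ones. Runx3 rose by 0.91 and 0.84 (padj = 1.2e-05 and 2.7e-05), Gpr183, a receptor that positions cDC2 in the marginal zone bridging channel, by 0.79 and 0.59 (padj = 2e-04 and 0.0018), and Tbx21 by 0.59 and 0.43 (padj = 0.01 and 0.049). Ltbr, the lymphotoxin receptor upstream of Relb, went the other way, at -0.70 (padj = 0.0011) and -0.64 (padj = 0.0023), with 31.99 to 45.03 TPM in adults and 60.14 to 72.78 TPM in young cells. No gene of the list passed between the young groups without the block.

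The 10 genes listed for ESAM-low cDC2 moved in both directions. From young to adult TOM+ cDC2, 4 rose and 5 fell, with a median log2FC of -0.08, where 19.5% of all genes were higher and 21% lower. From young TOM- DC2 4 rose and 2 fell, with a median of -0.06, where 16.9% of all genes were higher and 19.4% lower. The lectin genes Clec10a and Mgl2 fell by 1.80 and 2.09 on the log2 scale (padj = 4.6e-05 and 4.1e-05) from young to adult TOM+ cDC2, and by 2.08 and 2.50 from young TOM- DC2 (padj = 2.1e-05 and 1.4e-05). In contrast, the lectin genes Clec7a (1.57 and 1.61, padj = 2.4e-05 and 2.7e-05) and Cd209a (1.29 and 1.78, padj = 0.00031 and 4e-05), the G-CSF receptor gene Csf3r (1.28 and 1.20, padj = 5.1e-05 and 9.7e-05) and Clec12a (0.55 and 0.75, padj = 0.011 and 0.0019) were higher in adults. Ccr2 (-1.01, padj = 0.00081), Cx3cr1 (-0.45, padj = 0.039) and Csf1r (-0.38, padj = 0.0043) fell from young to adult TOM+ cDC2 and did not pass from young TOM- DC2, and Lyz2 passed in neither. Whether the 2 age effects differed was tested between the young groups, where none of these passed.

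**Figure D4:**
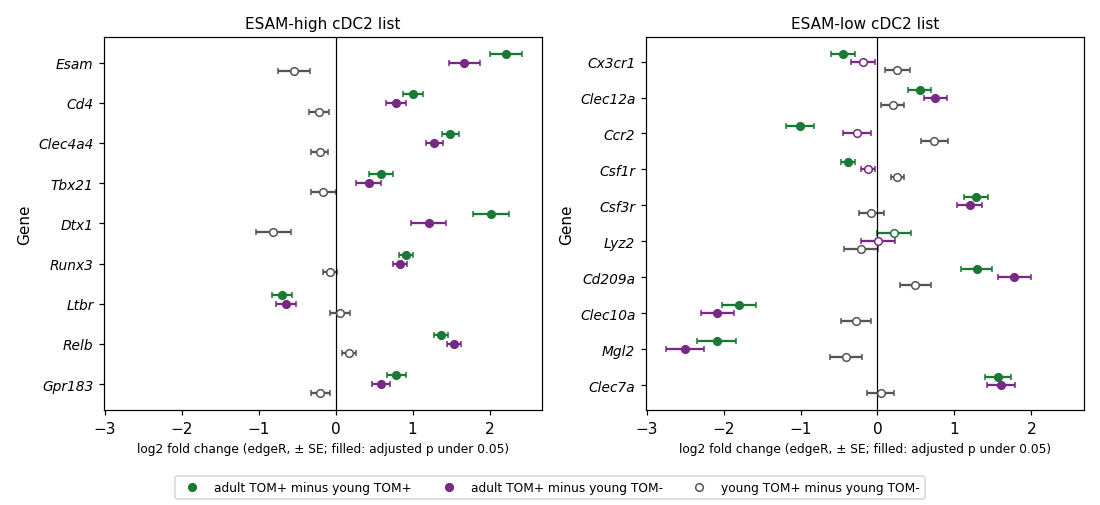
Log2 fold change (horizontal axes, edgeR, ± SE) of the genes listed for ESAM-high cDC2 (left) and ESAM-low cDC2 (right) in 3 comparisons, coloured as in the key, with filled points at padj under 0.05. On the left 8 of 9 genes lie to the right of 0 in both age comparisons and Ltbr lies at -0.70 and -0.64, whereas on the right genes lie on both sides of 0.

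The rest of the pathway was read from a list of 72 genes, members included, of which 69 were tested. From young to adult TOM+ cDC2, 16 rose and 8 fell (6 and 2 called), and from young TOM- DC2 16 rose and 7 fell (4 and 3 called), with a median log2FC of 0.02 and 0.07. The share that passed lay somewhat below that of all genes in each comparison (40.6% and 36.3%), and so did the share called (12.8% and 11.3%). By direction, the share that rose lay above that of all genes (19.5% and 16.9%). The share that fell lay below that of all genes (21% and 19.4%).

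Among the ligands the 2 Jagged genes moved in opposite directions. Jag1 was at 2.85, 3.10 and 3.05 TPM in young TOM+ cDC2, at 4.45, 4.63 and 4.57 TPM in young TOM- DC2 and at 11.61, 9.71 and 11.37 TPM in adults, and these levels did not overlap. Its log2FC was 1.99 (SE 0.12, padj = 3.3e-07) and 1.41 (SE 0.12, padj = 3.5e-06) in the age comparisons and -0.58 between the young groups (SE 0.12, padj = 0.028). Jag2 was at 9.83, 14.16 and 17.88 TPM, at 8.41, 15.14 and 17.25 TPM and at 2.71, 2.79 and 4.29 TPM in the same order, lower in every adult library, with a log2FC of -1.97 (SE 0.30, padj = 0.00026) and -1.89 (SE 0.30, padj = 0.00042). Of the delta-like genes, Dll4 was at 0.82 to 4.15 TPM, Dll1 did not exceed 0.56 TPM, and neither passed.

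All receptors other than Notch2 were low. Besides Notch1, Notch4 was at 1.24 to 2.03 TPM (-0.52, padj = 0.013, and -0.27, padj = 0.17) and Notch3 at 0.20 to 0.56 TPM (0.92, padj = 0.02, and -0.21, padj = 0.58). Notch4 was above Notch1 in every library and was not part of the share of Notch2 given above. Among genes that modify the receptors Lfng, a sugar transferase that alters which ligands are bound, had the highest level and did not pass (-0.37 and -0.32, padj = 0.22 and 0.30), nor did Psenen, the most abundant gene of receptor cleavage (-0.10 in both, padj = 0.66 and 0.67). The test of Psenen rests on few reads, since STAR counted 8.17% of the reads that RSEM assigned to it. Of the 10 genes of receptor cleavage, Aph1c rose in both age comparisons, Aph1b fell in the first, and the other 8 passed in neither; STAR counted 59.7% and 53% of the RSEM reads of Aph1c and Aph1b. Snw1, the most abundant of the nuclear activators, was at -0.02 and -0.07 (padj = 0.83 and 0.49), and 3 of the 10 activators passed in each comparison, all higher in adults. Beside these counts by role, 19.5% and 16.9% of all genes were higher in adults and 21% and 19.4% lower. Of 13 genes of nuclear repression 2 rose and 3 fell in each comparison, where 40.6% and 36.3% of all genes passed. L3mbtl3, whose protein binds RBPJ in competition with Notch, was the one called, at 1.32 (SE 0.18, padj = 0.00012) and 1.11 (SE 0.18, padj = 0.00049).

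Hes5, with Dtx1, was the other called target gene, at 2.56 (SE 0.61, padj = 0.0054) and 2.58 (SE 0.62, padj = 0.0060), but at low level. It was at 0.09 to 0.47 TPM in young libraries and at 0.88, 0.99 and 2.64 TPM in adult ones. The other target genes tested, including Hes1 and Nrarp, did not pass. Of 14 genes of turnover and trafficking, 5 rose and 1 fell from young to adult TOM+ cDC2 and 5 rose and 2 fell from young TOM- DC2. Of all genes, 40.6% and 36.3% passed, 19.5% and 16.9% higher and 21% and 19.4% lower in adults. Neurl3, a ubiquitin ligase of the Neuralized family, was the most abundant, at 201.41 to 273.30 TPM in young and 334.55 to 495.45 TPM in adult libraries, with a log2FC of 1.05 (SE 0.13, padj = 6.9e-05) and 0.87 (SE 0.13, padj = 0.00035). Dtx3 rose by 1.17 (padj = 1.1e-05) and 0.77 (padj = 3e-04), and Neurl1a, at no more than 0.66 TPM, was at -0.63 (padj = 0.44) and -1.65 (padj = 0.044).

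**Figure D5:**
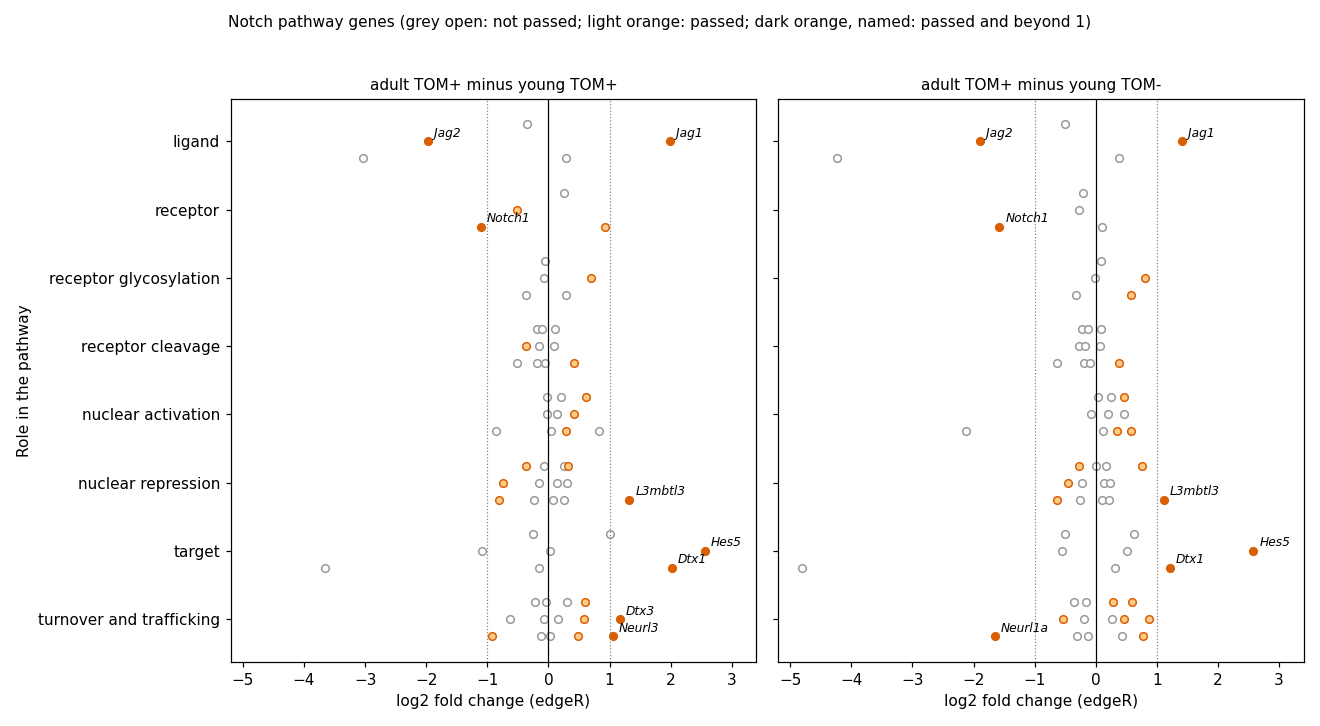
Log2 fold change (horizontal axes, edgeR) of the 69 tested genes of the pathway list, by role (vertical axis), from young TOM+ cDC2 (left) and young TOM- DC2 (right) to adult TOM+ cDC2; each point is a gene, and vertical offsets within a role only separate points. Grey open points did not pass, light orange points passed, and dark orange, named points passed with a log2FC beyond 1: Jag2 and Notch1 lie to the left in both panels and Jag1, L3mbtl3, Hes5 and Dtx1 to the right.

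Between the young groups, Jag1 and the corepressor Tle1 (0.49, SE 0.11, padj = 0.043) passed without the block, 1 lower and 1 higher in TOM+ cDC2. These 2 of 69 genes stand beside 1.6% of all genes. With the block on all 9 libraries, 10 genes of the list passed, beside 6.57% of all genes. Besides Dtx1, Jag1 and Tle1 these were Dll4 (-0.78), Notch3 (-1.13), Dtx3 (-0.41), Nedd4 (-0.19) and Neurl3 (-0.18), lower in TOM+ cDC2, and Ctbp2 (0.36) and Dtx2 (0.39), higher.

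Some genes next to the members on the chromosome also changed. Lag3, an inhibitory receptor that like CD4 binds MHC class II, lies 16112 bases from Cd4 and rose by 3.06 (SE 0.19, padj = 4.1e-07) from young to adult TOM+ cDC2 and by 2.23 (SE 0.18, padj = 2.8e-06) from young TOM- DC2, reaching 8.97 to 9.59 TPM. On the other side, at 498 bases, Gpr162 rose by 2.14 and 2.09 (padj = 2.3e-05 and 3.4e-05). Next to Dtx1 the interferon-induced gene Oas2 rose by 2.93 and 2.43 (padj = 1e-06 and 4.2e-06), and Rasal1, at 606 bases, by 1.23 in the first comparison (padj = 0.007) with 0.73 in the second (padj = 0.08).

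Of the neighbours of Esam, Vsig2, 936 bases away, was at 7.48 to 8.61 TPM in young TOM- DC2, at 0.16 to 0.67 TPM in young TOM+ cDC2 and at 0.48 to 1.08 TPM in adults, and it differed in all 3 comparisons. It rose from young to adult TOM+ cDC2 (1.48, padj = 0.035), as Esam did, fell from young TOM- DC2 (-3.11, padj = 4.6e-05), where Esam rose, and was lower in young TOM+ cDC2 than in young TOM- DC2 (-4.60, padj = 6.8e-05). Msantd2, on the other side of Esam, did not pass (-0.28 and -0.29, padj = 0.11 in both). Egfl7, next to Notch1, fell like Notch1 (-4.66 and -3.99, padj = 0.015 and 0.042), at no more than 3.57 TPM in young and 0.24 TPM in adult libraries, and is 1 of the endothelial markers above; Sec16a, on the other side, did not pass. Tor4a, next to Nrarp, rose by 0.38 and 0.32 (padj = 0.018 and 0.043). Of the other neighbours, Gm5544, Adam30, Smim20 and Opa1 did not pass, Cckar, Cpn2, Noxa1 and Lipc were not tested for low counts, and Mindy2 was not matched by symbol. No protein-coding gene overlaps a member in RefSeq, and the microRNA gene Mir6996 within Notch1 had at most 1 read in any library.

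By Pearson correlation of log2 CPM over the 9 libraries, the 5 genes most like Esam were Pkd2l2, Ddx58, Nipbl, Cbx7 and Ikzf3 (r from 0.991 to 0.994), those most like Cd4 were Usp48, Ddx58, Supt20, Fbxl12 and Gm4956 (0.988 to 0.992), and those most like Dtx1 were Il12rb2, Ccser1, Itga9, 4932438A13Rik and Usp48 (0.988 to 0.992). The libraries fall into young and adult ones, so any gene that differs with age in the same direction scores high, and the ranks are a description. Il12rb2, a chain of the interleukin-12 receptor, had a mean of 21.8 TPM in young TOM+ cDC2, 30.5 TPM in young TOM- DC2 and 42.1 TPM in adults, the same order of groups as Dtx1. Ikzf3, which encodes the transcription factor Aiolos, had 0.400, 0.927 and 4.85 TPM, the same order as Esam. On log2(TPM + 1) none of the 5 genes named for Esam, and 2 of the 5 for each of Cd4 and Dtx1, were named again.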

How the data were processed

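Per the labels and the study's methods, cDNA was made with a SMART-seq v4 kit, which keeps no strand, and sequenced as 50 bp single-end reads. The authors mapped reads to mm10 (GRCm38) with STAR and RSEM; versions are not given in the sources used here. The authors deposited STAR's unstranded read counts per gene, and RSEM's expected counts and TPM. Here, edgeR 4.0.16 (quasi-likelihood test, TMM, Benjamini-Hochberg over all 14452 genes whose mean count reached 1) was fitted to the counts of all 9 libraries without the 4 summary lines of STAR; DESeq2 1.42.0 and limma 3.58.1 served as alternatives, and expected counts were rounded. TPM gave levels, and scripts were tested on simulated data. Depth was 12783252 to 22809401 counts per library.

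Members and lists were chosen with earlier results of these data known. Named were all members, called pathway genes or else the most abundant of each role, ESAM-high and ESAM-low list genes that passed, the 5 genes most like Esam, Cd4 and Dtx1 by correlation (average count of at least 50), and chromosomal neighbours; other names were chosen after their values were seen. The meaning of the numbers 81, 91 and 92 in the names of the young libraries is not stated. They were taken as pairs from the data, since deviations from group means correlated at 0.743, 0.490 and 0.515 within pairs, and at -0.516 to 0.165 otherwise. Adult libraries (91, 92 and 95) were not taken as paired with young ones of the same number, at -0.0128 to 0.149. Replicates were numbered in accession order, 1 to 3 for those numbers. Pairs of replicates differed by more than sampling noise (chi-square per gene of 10.3 to 28.3). Coordinates, neighbours and promoter windows are from RefSeq (GRCm38.p6). Some marker genes are not reported here.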

Additional observations from a re-analysis of the deposited data

Results flagged for a closer look

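Jag1 and Tle1 were picked out because the age difference from young TOM+ cDC2 and that from young TOM- DC2 were not the same, by the test between the young groups in the model of all 9 libraries. For Jag1 the difference of the log2FC was -0.58 (edgeR, padj = 0.028), lower in young TOM+ cDC2, and for Tle1 it was 0.49 (edgeR, padj = 0.043), higher in young TOM+ cDC2. Both age comparisons use the same adult libraries.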

How the results depend on the processing

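Notch1, Dtx1, Esam and Cd4 passed with the same sign in all 20 alternatives of both age comparisons. On log2(TPM + 1) in limma, which shrinks differences of low genes, 2 members were called from young to adult TOM+ cDC2 (4 by edgeR), and 5 and 3 pathway genes in the age comparisons (8 and 7 by edgeR); Rbpj turned to -0.24 against young TOM- DC2 with either pseudocount (1 or 0.1; the cause was not tested). Between the young groups, 1 member passed without the filter on low counts or with DESeq2 (0 by edgeR), and 0 pathway genes passed in limma with either pseudocount or with only the groups compared (2 by edgeR). With the number as a replicate block, 3 members and 10 pathway genes passed between the young groups and 1 pathway gene was called; with only the young groups and the block, 6 and 15 passed and 1 was called. Without both young replicate 1 libraries, 2 members and 1 pathway gene passed. These last 2 alternatives were added after seeing the data.

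Adult libraries were not paired by their numbers. The block there gave 35 pathway genes that passed against young TOM- DC2 (23 without it, 22 shared), and Notch2 at 0.53 (padj = 8.4e-05) and 0.38 (padj = 0.0017). It changed no other call of a member with age.

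Leaving out each library in turn, 0 to 2 members passed and 0 to 1 were called between the young groups, as did 0 to 2 pathway genes with 0 to 1 called. The share of Notch2 differed by 0.335 to 1.21 percentage points between the young groups and by 2.71 to 3.58 from young TOM- DC2 to adults. Nrarp and Notch1 rest on 20 to 97 and 22 to 180 reads, which limits what could be detected.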
